A study of Mus musculus with 24 samples.

Results

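The lactating mammary gland at day 7 of lactation (Lac7, 6 mice) was compared with the gland of adult females at 10 weeks of age (W10, 6 mice). Small RNA was read from 1 library per mouse, and the 12 libraries are 12 of the 24 of a series that also holds day 18 of gestation (P18) and day 3 of involution (Inv3), with 6 mice each. Of the 1009 mouse miRNAs listed, 523 reached an average of 1 read per 1e6 miRNA reads (RPM) at W10 or Lac7 and were compared, on log2(RPM + 1).

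All mice were females of the inbred strain C57/BL6 (as labelled) with no transgene, deletion or treatment named, and the W10 mice carry the numbers 1 to 5 and 7. Whether the W10 females had been mated is not given in the sources used here. Each library came from a whole homogenate of the abdominal and inguinal glands, so epithelium, fat, vessels, immune cells, adjoining muscle and, at lactation, retained milk are measured as a mixture. The labels give day 7 for lactation, while the design text of the series gives day 3; the labels and the methods are followed here. In such bulk samples fewer cells of a type and less RNA per cell cannot be told apart.

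A miRNA is a short RNA that guides an Argonaute protein to complementary sites in messenger RNAs and lowers their translation and stability. The seed, bases 2 to 8 of the mature miRNA, contributes most to the choice of target, so miRNAs with the same seed are read as a family. A hairpin precursor can give a miRNA from either of its arms, named 5p and 3p. Before pregnancy a sparse ductal tree lies in a large fat pad, and in lactation the pad is filled with milk-secreting alveoli, whose luminal cells express the miR-200 family. Milk itself is rich in miRNAs, of which miR-148a-3p is among the best known.

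The comparison turns on a few families, whose mature sequences are shown first, with the seed in capitals. They are RefSeq entries on the mouse assembly GRCm38.p6, read 5′ to 3′, and 441 of the 523 tested miRNAs had an entry. The miR-200 family has 2 seeds that differ by 1 base, and both seeds are shown because every tested member of the family was called higher at Lac7.
miR-200a-3p: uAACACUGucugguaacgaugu
miR-141-3p: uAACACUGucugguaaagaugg
miR-200b-3p: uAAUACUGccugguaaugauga
miR-200c-3p: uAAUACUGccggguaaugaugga
miR-429-3p: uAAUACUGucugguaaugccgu
The miR-148 and miR-146 families are shown because members with the same seed differed from each other.
miR-148a-3p: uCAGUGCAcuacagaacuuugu
miR-148b-3p: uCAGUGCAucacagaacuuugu
miR-152-3p: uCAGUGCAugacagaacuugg
miR-146b-5p: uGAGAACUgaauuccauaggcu
miR-146a-5p: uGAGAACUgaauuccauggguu
miR-27b-3p, miR-210-3p, miR-182-5p and miR-96-5p were called higher at Lac7, and miR-27a-3p is shown as the seed partner of miR-27b-3p that was not called.
miR-27b-3p: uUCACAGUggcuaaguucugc
miR-27a-3p: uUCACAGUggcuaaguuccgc
miR-210-3p: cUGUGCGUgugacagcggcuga
miR-182-5p: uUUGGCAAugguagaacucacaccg
miR-96-5p: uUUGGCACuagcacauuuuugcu
The last set holds abundant miRNAs that were called lower, with miR-142a-3p as the antisense partner of miR-142b, and the abundant miR-16-5p, let-7c-5p and let-7a-5p, which were not called.
miR-199a-3p: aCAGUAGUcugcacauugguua
miR-142b: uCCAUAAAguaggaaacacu
miR-142a-5p: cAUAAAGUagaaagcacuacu
miR-142a-3p: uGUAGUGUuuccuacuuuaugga
miR-29a-3p: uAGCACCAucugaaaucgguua
miR-16-5p: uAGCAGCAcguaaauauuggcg
miR-21a-5p: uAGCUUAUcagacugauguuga
let-7c-5p: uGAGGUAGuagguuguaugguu
let-7a-5p: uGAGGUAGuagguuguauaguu

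miR-146a-5p and miR-146b-5p differ at 2 of their 22 bases, both outside the seed. miR-142b is read from the strand opposite to miR-142a, and 20 of its bases are the reverse complement of miR-142a-3p. miR-142b held 15 to 15.9 times the reads of miR-142a-3p in the W10 mice and 14.1 to 15.8 times in the Lac7 mice, ranges that overlap. The library kit keeps the strand, but the strand setting of the counting is not given in the sources used here, so the reads of these partners cannot be told apart with certainty and they are also given as a sum. Tested miRNAs without a listed sequence could not be searched for such pairs. Among the 441 with one there were 12 such pairs with a reverse-complementary run of 17 bases or more. They include miR-3074-5p with miR-24-3p (10.9 and 10.4 times as many reads on miR-3074-5p at W10 and Lac7) and miR-3065-5p with miR-338-3p.

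In the genome (GRCm38), miR-200a and miR-200b come from 1 cluster on chromosome 4 (chr4:156054896-156054985, minus strand and chr4:156055681-156055750, minus strand), within an intron of Ttll10 in the GENCODE annotation. miR-141 and miR-200c come from a second cluster on chromosome 6 (chr6:124717914-124717985, minus strand and chr6:124718322-124718390, minus strand), inside the annotated gene Gm15884 and outside its exons. miR-148a (chr6:51269812-51269910, minus strand) lies in no annotated gene of its strand, and miR-146b (chr19:46342762-46342870, plus strand) lies in an intron of Mfsd13a, while miR-146a (chr11:43374397-43374461, minus strand) is on another chromosome and overlaps no listed gene of its strand. miR-27b (chr13:63300712-63300784, plus strand) overlaps an exon of 2010111I01Rik, and miR-21a (chr11:86584067-86584158, minus strand) overlaps an exon of Vmp1. miR-199a-3p has the loci chr1:162217814-162217923, plus strand and in an exon of Dnm3os, and chr9:21496495-21496564, minus strand.

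Between 911336 and 1143715 miRNA reads were recovered per W10 library (median 967413) and between 660346 and 751890 per Lac7 library (median 693166), so the stages did not overlap in depth. A single read was worth 0.874 to 1.10 RPM at W10 and 1.33 to 1.51 RPM at Lac7, and a count of 0 allows 3 reads, which is 2.62 to 3.29 RPM at W10 and 3.99 to 4.54 RPM at Lac7, for counting error only. With the reads thinned to those of the smallest library, 274 miRNAs were called, against 273 with all reads. Among the Lac7 mice, numbers 4 and 5 stood apart from the other 4: their miR-142 and miR-223 reads were 3.45 and 3.19% of the library, against 1.0 to 1.29% in the others, and their muscle miRNAs summed to 0.0263 and 0.0344%. Without these 2 mice, 268 miRNAs were called, 54 of them higher and 214 lower at Lac7.

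Most of the miRNAs that changed were lower in the lactating gland. Of the 523 tested, 273 (52.2%) were called, which required a two-sided limma adjusted p below 0.05 together with a change of 2-fold or more in either direction. At Lac7, 57 (10.9%) were higher and 216 (41.3%) were lower. For 227 miRNAs (43.4%) no W10 mouse overlapped with any Lac7 mouse, and these included 47 of the 57 and 140 of the 216. The median log2 fold change over all 523 was -0.73. RPM are shares of a fixed total, so the gain of a few abundant miRNAs lowers the value of the others. With the libraries scaled instead by DESeq2 size factors, taken from the median ratio over miRNAs, the median was -0.34, a shift of 0.39, and 95 miRNAs (18.2%) were called higher and 158 (30.2%) lower. Higher calls were 20.9% of all calls on RPM and 37.5% on size factors. All 57 miRNAs called higher on RPM were also called higher on size factors, 158 of the 216 called lower were also called lower, and none was called in opposite directions. Relative to depth, the size factors were 1.15 to 1.28 at W10 and 0.791 to 0.918 at Lac7, so this scaling raised the fold changes of Lac7 over W10. Higher calls could hardly be lost by it nor lower calls gained, so this overlap is not a check of the calls. The calls below are those on RPM, and calls on size factors are named as such. The scatter of the stage means shows the bulk of the miRNAs under the line of equal RPM and a small set far above it.

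**Figure D1:**
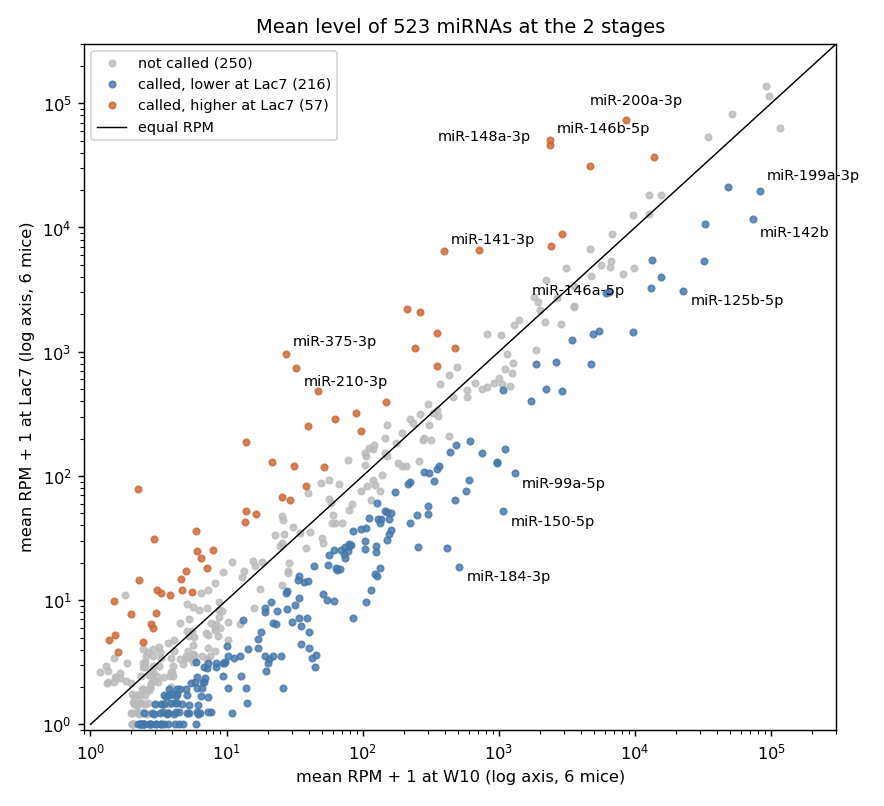
Each point is 1 of the 523 tested miRNAs, at its mean RPM + 1 over 6 W10 mice (horizontal, log axis) and over 6 Lac7 mice (vertical, log axis). The 57 miRNAs called higher at Lac7 are orange, the 216 called lower are blue and the 250 not called are grey, and the line marks equal RPM.

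The calls of low miRNAs rest on few reads. Among the 216 called lower, 86 had at most 3 reads in every Lac7 library, and among the 57 called higher, 7 had at most 3 reads in every W10 library. For these the fold change is a matter of the pseudocount of 1 RPM. A mean of 100 RPM or more at either stage was reached by 183 miRNAs, of which 27 were called higher and 71 lower. At 1000 RPM or more there were 78 miRNAs, with 14 called higher and 25 lower, and at 10000 RPM or more there were 23, with 5 higher and 9 lower.

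By share of all reads, the 57 miRNAs called higher held 4.08% of the reads at W10 and 28.1% at Lac7. The 216 called lower held 40.6% and 10.4%. The 250 not called held 55.3% and 61.4%, so more than 1 read in 2 at each stage belonged to a miRNA that did not pass the rule. In all, 38% of the reads would have to move from one miRNA to another to turn the mean W10 library into the mean Lac7 library. Between single libraries this distance was 33.7 to 42.2% over the 36 pairs of a W10 and a Lac7 mouse (median 38.6%). It was 5.02 to 15.2% between W10 mice and 3.58 to 8.89% between Lac7 mice, so every pair across the stages was farther apart than any pair within them. The 5 largest gains made up 61.7% of all the share gained and the 10 largest 86.5%, and the 5 largest losses made up 60.8% of the share lost and the 10 largest 79.6%. By number, 259 miRNAs gained share and 619 lost it, counted over all 1009 listed and so including those below the filter of 1 RPM.

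The reads of the lactating gland were spread over fewer miRNAs. The 10 most abundant miRNAs of a library held 63.5 to 67.9% (median 66.4%) at W10 and 68.3 to 70.4% (median 69%) at Lac7, and the single most abundant one held 10.2 to 12.7% (median 11.8%) at W10 and 13.2 to 14.8% (median 13.9%) at Lac7. The effective number of miRNAs, the exponential of the Shannon entropy of the shares, was 32.3 to 36.9 (median 33.1) at W10 and 28.3 to 30.3 (median 29.3) at Lac7. No W10 mouse overlapped with a Lac7 mouse in any of these measures. The number of miRNAs with at least 1 RPM in a library was 469 to 576 (median 522.5) at W10 and 442 to 464 (median 456) at Lac7. For each of these 4 values the difference of the means had an exact permutation p of 0.0022 (two-sided, 6 mice against 6), the smallest that this design can give, and an adjusted p of 0.0022. Lac7 libraries held fewer reads, and the threshold of 1 RPM did not treat all libraries alike. A single read reached 1 RPM in every Lac7 mouse, but not in W10 mice 2, 5 and 7 (0.8743, 0.8746 and 0.9945 RPM). The difference of the means was -66.7 miRNAs by this threshold and -29 at 10 RPM or more. With thinned reads any read counted as detection and the difference was -82. That is another rule, so -82 and -66.7 cannot be set against each other.

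Of the 10 most abundant miRNAs of W10, 5 were also among the 10 of Lac7: miR-16-5p, let-7c-5p, miR-143-3p, let-7a-5p and miR-103-3p. None of these 5 was called on RPM. miR-16-5p, a repressor of cyclins and the most abundant at W10, had 102295 to 126502 RPM (median 117721) at W10 and 58956 to 68485 RPM (median 63462) at Lac7. Its groups did not overlap, and its means differed 1.83-fold (log2 fold change -0.87, SE 0.09, limma adjusted p = 1.3e-09), short of the 2-fold rule. miR-143-3p, known from smooth muscle and fibroblasts and the most abundant at Lac7, had 84721 to 103515 RPM (median 91456) at W10 and 128704 to 148114 RPM (median 139004) at Lac7 (log2 fold change 0.59, SE 0.09, limma adjusted p = 1.1e-06). Its groups did not overlap either, and on size factors, with a log2 fold change of 1.14, it was called higher. let-7c-5p had 81195 to 121139 RPM (median 95877) at W10 and 99247 to 139372 RPM (median 111642) at Lac7, with groups that overlapped (log2 fold change 0.26, SE 0.10, limma adjusted p = 0.032).

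The other 5 places differed. miR-200a-3p, miR-146b-5p, miR-148a-3p, miR-27b-3p and miR-200b-3p entered the first 10 at Lac7, and each rose. miR-199a-3p, miR-142b, miR-29a-3p, miR-21a-5p and miR-142a-5p left it, and each fell. As they were picked by their level at 1 stage in these same libraries, a rise on entering and a fall on leaving largely follow from the choice. The 5 that entered gained 20.7 percentage points of the reads together and the 5 that left changed by -20, of 38 points moved in all. The plot of the most abundant miRNAs by mouse shows that none of their groups overlapped, beside 43.4% of all tested without overlap. On size factors miR-29a-3p was not called (log2 fold change -0.63), and the other 9 kept their call.

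**Figure D2:**
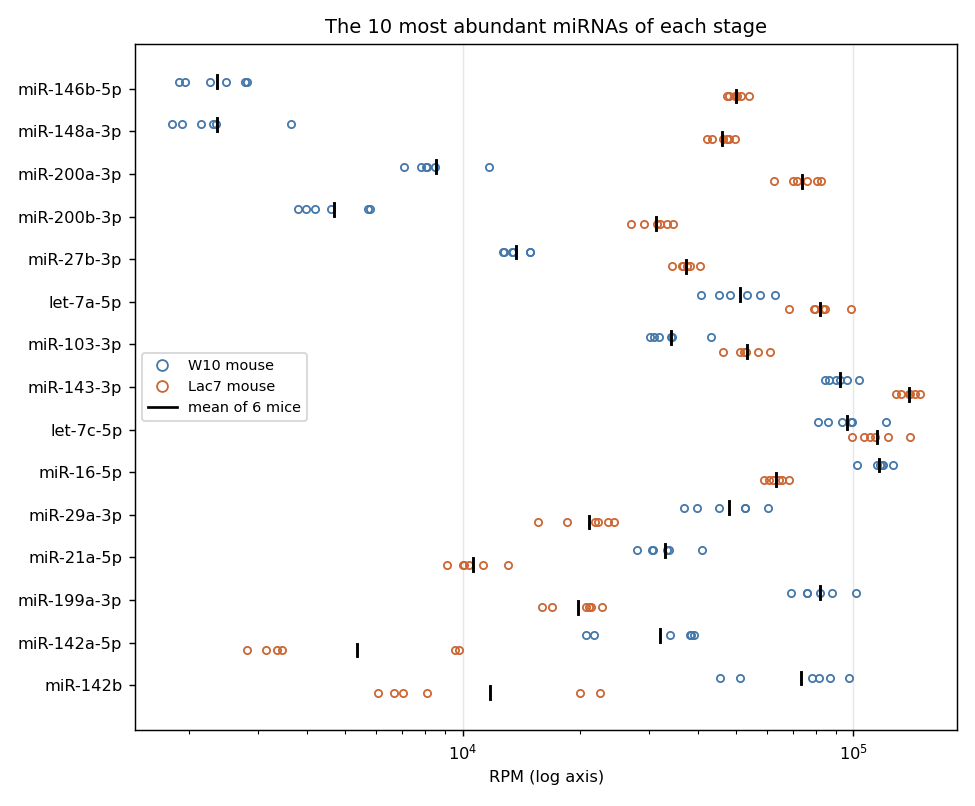
RPM in each mouse (log axis) of the 15 miRNAs that are among the 10 most abundant at W10 or at Lac7, ordered by log2 fold change, with W10 mice in blue, Lac7 mice in orange and the mean of 6 mice as a bar. let-7c-5p is the one miRNA of the 15 whose groups overlap, and for miR-142b and miR-142a-5p 2 Lac7 mice sit above the other 4.

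Among epithelial miRNAs, the miR-200 family, which represses Zeb1 and Zeb2 and is a mark of epithelial cells, rose as a whole. The 10 listed members summed to 1.51 to 2.1% (median 1.64%) of the reads at W10 and 11.6 to 13.6% (median 12.3%) at Lac7, and the sums did not overlap. All 9 tested members were called higher, against 10.9% of all miRNAs tested, with a median log2 fold change of 2.98 (3.54 on size factors) beside -0.73 over all 523. miR-200a-3p, the most abundant, had 7072 to 11694 RPM (median 8089) at W10 and 62672 to 82433 RPM (median 73920.3) at Lac7. Every Lac7 mouse stood above every W10 mouse, and the means differed 8.65-fold (log2 fold change 3.13, SE 0.25, limma adjusted p = 2.3e-11). Its partner by seed, miR-141-3p, had 271 to 528 RPM (median 396) at W10 and 5838 to 6844 RPM (median 6509.6) at Lac7, a 16.3-fold difference of the means (log2 fold change 4.05, SE 0.27, limma adjusted p = 8e-13).

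In the other seed, miR-200b-3p had 3782 to 5786 RPM (median 4393) at W10 and 26942 to 34464 RPM (median 31741) at Lac7 and rose 6.68-fold (log2 fold change 2.76, SE 0.18, limma adjusted p = 8.5e-13). miR-200c-3p had 2293 to 4456 RPM (median 2571) at W10 and 6836 to 10155 RPM (median 9206) at Lac7 and rose 3.05-fold (log2 fold change 1.64, SE 0.20, limma adjusted p = 3.9e-08), the smallest change of the family. So the mice did not overlap for any of these, but the members rose by unequal amounts: miR-141-3p and miR-200c-3p come from the same cluster and had log2 fold changes of 4.05 and 1.64. miR-429-3p, from the cluster on chromosome 4, had means of 262 ± 19.8 RPM at W10 and 2081 ± 159 RPM at Lac7 (SD, n = 6 mice; log2 fold change 2.98). The minor arms miR-200a-5p and miR-141-5p, with log2 fold changes of 3.77 and 3.37, moved with their main arms.

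miR-182, miR-96 and miR-183 form a cluster on chromosome 6, known from sensory epithelia and secretory tissue. The list summed to 0.0851 to 0.13% (median 0.0993%) of the reads at W10 and 0.726 to 0.88% (median 0.825%) at Lac7 without overlap, and 4 of 5 tested members were called higher (5 on size factors), against 10.9% of all tested (median log2 fold change 2.75). miR-182-5p had 578 to 857 RPM (median 726) at W10 and 5808 to 7101 RPM (median 6656) at Lac7 and rose 9.18-fold (log2 fold change 3.21, SE 0.21, limma adjusted p = 8e-13). miR-96-5p had 28 to 63 RPM (median 47.5) at W10 and 364 to 571 RPM (median 482) at Lac7 and rose 10.4-fold (log2 fold change 3.39, SE 0.27, limma adjusted p = 2.3e-11). All Lac7 mice were above all W10 mice for both, and likewise for miR-183-5p (log2 fold change 2.21).

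miR-205 and miR-203, which mark basal and keratinized epithelium, had no member called higher and 2 of 4 called lower (1 on size factors), against 41.3% of all tested. Their summed share was 0.472 to 0.932% (median 0.594%) of the reads at W10 and 0.425 to 0.57% (median 0.528%) at Lac7, with overlap. miR-205-5p, a mark of basal and progenitor cells, had 259 to 691 RPM (median 421) at W10 and 125 to 208 RPM (median 145) at Lac7 and was called lower (log2 fold change -1.42, SE 0.25, limma adjusted p = 1.7e-05), but it was not called on size factors (log2 fold change -0.87). miR-203-3p had 3944 to 8553 RPM (median 5512) at W10 and 4096 to 5531 RPM (median 5062) at Lac7 with overlapping groups (log2 fold change -0.16, SE 0.14, limma adjusted p = 0.32), while its other arm miR-203-5p fell 4.78-fold (log2 fold change -2.18). miR-31-5p, another epithelial miRNA, was not called on RPM (log2 fold change 0.64) and was called higher on size factors (1.19). Its minor arm miR-31-3p, at a mean of 3.59 RPM at Lac7, lost its call when W10 mouse 3, 4 or 5 was left out (log2 fold change 0.96 each time) and without Lac7 mice 4 and 5 (limma adjusted p = 0.065).

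Of the 23 miRNAs at 10000 RPM or more, miR-146b-5p and miR-148a-3p had the largest log2 fold changes. miR-148a-3p, an abundant miRNA of milk, had 1809 to 3632 RPM (median 2220.2) at W10 and 42158 to 49878 RPM (median 46970.1) at Lac7. The lowest Lac7 mouse was far above the highest W10 mouse, and the means differed 19.6-fold (log2 fold change 4.33, SE 0.30, limma adjusted p = 1.4e-12). Its minor arm miR-148a-5p rose too (log2 fold change 3.66). The seed partners miR-148b-3p and miR-152-3p were not called on RPM, with log2 fold changes of 0.81 and 0.59, and were called higher on size factors. The family of 6 miRNAs summed to 0.237 to 0.424% (median 0.279%) of the reads at W10 and 4.29 to 5.09% (median 4.79%) at Lac7, with 3 of 6 tested members called higher (5 on size factors), against 10.9% of all tested.

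The 2 members of the miR-146 family, which lower signalling to NF-kB through Traf6 and Irak1, moved in opposite directions. miR-146b-5p had 1879.7 to 2816 RPM (median 2369.9) at W10 and 47442 to 54079.7 RPM (median 50078) at Lac7, a 21.3-fold rise (log2 fold change 4.43, SE 0.26, limma adjusted p = 1.7e-13). miR-146a-5p had 11427 to 14724 RPM (median 13015) at W10 and 1829 to 4778 RPM (median 3078) at Lac7, a 4.02-fold fall (log2 fold change -2.08, SE 0.19, limma adjusted p = 2.3e-10). In every W10 mouse miR-146a-5p was the more abundant of the pair and in every Lac7 mouse miR-146b-5p was. Their common seed held 1.55 ± 0.125% of the reads at W10 and 5.35 ± 0.215% at Lac7 (SD, n = 6 mice each). Since the pair differs at 2 bases, a read with errors at these positions could be assigned to the other member; how the counting treated such reads is not given in the sources used here.

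miR-375-3p, known from secretory and endocrine cells, had 8.95 to 76.6 RPM (median 16.4) at W10 and 844 to 1028 RPM (median 982) at Lac7. W10 mouse 1, with the highest value of its stage, was still far below every Lac7 mouse, and the rise was the largest of all called miRNAs over 100 RPM (36.9-fold; log2 fold change 5.57, SE 0.50, limma adjusted p = 1.6e-10). miR-210-3p, the miRNA best known for its induction by hypoxia, had 12.9 to 44.6 RPM (median 35.3) at W10 and 659 to 835 RPM (median 730.1) at Lac7 and rose 23.4-fold (log2 fold change 4.59, SE 0.34, limma adjusted p = 9.8e-12), again without overlap. The miR-30 family, linked to differentiation of epithelium and fat, showed no such pattern. It summed to 1.7 to 2.24% (median 2.01%) of the reads at W10 and 1.58 to 1.99% (median 1.84%) at Lac7. Of its 11 tested members 1 was called higher (miR-30b-3p, log2 fold change 1.18) and 1 lower (miR-30d-5p, -1.08), against 10.9% and 41.3% of all tested. On size factors 3 were called higher and none lower, against 18.2% and 30.2% of all tested.

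The let-7 family, a mark of differentiated cells, was the largest seed family at both stages. It summed to 15.3 to 22.5% (median 18.1%) of the reads at W10 and 22.3 to 29.1% (median 23.9%) at Lac7, and 1 W10 mouse reached the range of Lac7. Of 21 tested members 1 was called higher and 3 lower, against 10.9% and 41.3% of all tested, and the median log2 fold change was 0.26 (0.78 on size factors). The called increase was let-7i-5p, with means of 2405 ± 505 RPM at W10 and 7089 ± 318 RPM at Lac7 (SD, n = 6; log2 fold change 1.58). let-7a-5p had 40755 to 62991 RPM (median 50913) at W10 and 68567 to 98346 RPM (median 81617) at Lac7 without overlap (log2 fold change 0.69, SE 0.11, limma adjusted p = 6.9e-06), and let-7f-5p had a log2 fold change of 0.54, and both were called higher on size factors. The 3 called lower were the minor arms let-7d-3p (-2.94), let-7a-1-3p (-1.23, not called on size factors) and let-7e-3p (-1.49), the last with at most 5 reads in any library. On size factors 8 members were called higher and 2 lower, against 18.2% and 30.2% of all tested.

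The clusters of miR-23, miR-27 and miR-24 exist in 2 copies, and their members diverged. miR-27b-3p, which targets Pparg and is studied in fat, had 12677 to 14918 RPM (median 13445) at W10 and 34256 to 40506 RPM (median 37125) at Lac7 and rose 2.72-fold without overlap (log2 fold change 1.45, SE 0.11, limma adjusted p = 1.5e-11). miR-23a-3p, of the other copy, had 12041 to 17298 RPM (median 16274) at W10 and 3628 to 4426 RPM (median 3940.1) at Lac7 and fell 3.89-fold without overlap (log2 fold change -1.95, SE 0.13, limma adjusted p = 8e-13). miR-27a-3p and miR-23b-3p were not called (log2 fold changes -0.39 and -0.06). The 11 listed members summed to 2.82 to 3.76% (median 3.46%) of the reads at W10 and 4.23 to 4.88% (median 4.6%) at Lac7. Of 7 tested, 2 were called higher and 1 lower, against 10.9% and 41.3% of all tested. On size factors these were 3 and 1, against 18.2% and 30.2% of all tested.

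The miR-181 family, known from lymphocyte development, had 4 of 9 tested members called higher and 2 lower (5 and 1 on size factors), against 10.9% and 41.3% of all tested. Its member miR-181b-5p rose 4.02-fold, with means of 352 ± 215 RPM at W10 and 1415 ± 183 RPM at Lac7 (SD, n = 6; log2 fold change 2.20), and miR-181a-1-3p rose 6.26-fold. miR-181a-5p had a log2 fold change of 0.60 and was not called (1.16 and called on size factors, 1.19 and called without the W10 mice 1, 2, 4 and 5, which are high in muscle miRNAs), while miR-181c-5p and miR-181d-5p fell (log2 fold changes -1.66 and -1.24, the latter not called on size factors). miR-103-3p, which acts on insulin sensitivity in fat and liver, had 30107 to 43129 RPM (median 32980.4) at W10 and 46392 to 61038 RPM (median 52753) at Lac7 without overlap (log2 fold change 0.66, SE 0.10, limma adjusted p = 3.9e-06). It passed the 2-fold rule on size factors and not on RPM, and its near-identical partner miR-107-3p, different at 1 base, was called on neither (log2 fold change 0.36). The pair summed to 3.16 to 4.47% (median 3.43%) of the reads at W10 and 4.81 to 6.3% (median 5.46%) at Lac7.

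Stromal miRNAs split. The miR-199 and miR-214 list, known from mesenchymal cells and transcribed in part with Dnm3os, summed to 7.63 to 10.8% (median 8.66%) of the reads at W10 and 1.74 to 2.44% (median 2.27%) at Lac7, and all 5 tested members were called lower (against 41.3% of all tested), on RPM and on size factors. miR-199a-3p had 69335 to 101844 RPM (median 79235) at W10 and 15993 to 22734 RPM (median 20869) at Lac7. No mouse overlapped, and the means differed 4.16-fold (log2 fold change -2.06, SE 0.12, limma adjusted p = 2.3e-13). miR-214-3p had means of 1107 ± 488 RPM at W10 and 164 ± 18.5 RPM at Lac7 (SD, n = 6; log2 fold change -2.65). Of the miR-143 and miR-145 list, expressed in smooth muscle, pericytes and fibroblasts, none of 4 tested members was called on RPM, against 52.2% of all tested. On size factors 2 were called higher, against 18.2% of all tested. The sum of this list was 8.59 to 10.5% (median 9.32%) of the reads at W10 and 13 to 14.9% (median 14.1%) at Lac7. miR-145a-5p, from the same cluster as miR-143, had 781 to 1454 RPM (median 1219) at W10 and 781 to 1108 RPM (median 959) at Lac7, with overlap and a log2 fold change of -0.24. With 14.1% of the reads at the median of Lac7, this list was the largest after let-7 among the lists at that stage.

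miR-29a-3p, a repressor of collagen genes, had 36837 to 60474 RPM (median 49071) at W10 and 15601 to 24363 RPM (median 22015) at Lac7 and fell 2.29-fold (log2 fold change -1.19, SE 0.15, limma adjusted p = 1.2e-07). miR-29c-3p and miR-29b-3p, with the same seed, were not called (log2 fold changes -0.75 and -0.22), and the minor arm miR-29b-1-5p was called higher at a mean of 23.9 RPM. No member was called lower on size factors. Summed, the miR-29 list held 3.97 to 6.51% (median 5.26%) of the reads at W10 and 1.78 to 2.69% (median 2.44%) at Lac7, without overlap. miR-21a-5p, a widely expressed miRNA tied to growth and fibrosis, had 27889.8 to 41060.4 RPM (median 31959) at W10 and 9101 to 13038 RPM (median 10219.8) at Lac7 and fell 3.09-fold (log2 fold change -1.62, SE 0.14, limma adjusted p = 6.5e-11).

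The miR-99, miR-100 and miR-125 list had 7 of 10 tested members called lower and none higher (5 lower and 1 higher on size factors), against 41.3% of all tested called lower, and it summed to 2.82 to 5.58% (median 3.57%) of the reads at W10 and 0.764 to 1.03% (median 0.886%) at Lac7 without overlap. miR-125b-5p, high in stem and stromal cells, had 17031 to 33699 RPM (median 21286) at W10 and 2734 to 3562 RPM (median 3044) at Lac7 and fell 7.32-fold (log2 fold change -2.84, SE 0.22, limma adjusted p = 1.5e-11). miR-99a-5p had 694 to 2189.7 RPM (median 1022) at W10 and 89.9 to 130.5 RPM (median 97.4) at Lac7 and fell 12.5-fold (log2 fold change -3.48, SE 0.28, limma adjusted p = 3e-11). For both, the lowest W10 mouse lay above the highest Lac7 mouse. let-7c shares the cluster of miR-99a on chromosome 16, and its log2 fold change was 0.26 against -3.48 for miR-99a-5p, although let-7c-5p also comes from a second locus. Of miR-10 and miR-196, in the Hox clusters, miR-196a-5p and miR-196b-5p fell (log2 fold changes -1.86 and -2.13) and miR-10a-5p had -0.93, with a summed share of 1.33 to 2.39% (median 1.57%) of the reads at W10 and 0.672 to 0.783% (median 0.696%) at Lac7.

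Leukocyte miRNAs were lower at Lac7. The miR-142 and miR-223 list, expressed in all leukocytes and in myeloid cells, summed to 7.04 to 14.5% (median 12.6%) of the reads at W10 and 1.0 to 3.45% (median 1.23%) at Lac7, without overlap, and all 5 tested members were called lower (4 on size factors), against 41.3% of all tested (median log2 fold change -2.74). miR-142b and miR-142a-3p together had 48554 to 103741 RPM (median 85195) at W10 and 6520.1 to 24135 RPM (median 8069) at Lac7, a 6.25-fold difference of the means. miR-142a-5p had 20657 to 39125 RPM (median 36032) at W10 and 2804 to 9787 RPM (median 3403) at Lac7 (log2 fold change -2.75, SE 0.32, limma adjusted p = 2.9e-08). Lac7 mice 4 and 5 were the high ones in both and without them the log2 fold change was -3.35 for miR-142b and -3.28 for miR-142a-5p. miR-223-3p, the myeloid miRNA, fell with a log2 fold change of -1.20 and was not called on size factors (-0.65).

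The lymphocyte list of miR-150, miR-155 and miR-342 summed to 0.369 to 0.508% (median 0.418%) of the reads at W10 and 0.0435 to 0.0855% (median 0.0536%) at Lac7, without overlap, and all 5 tested members were called lower (4 on size factors), against 41.3% of all tested. miR-150-5p, a mark of mature B and T cells, had 637 to 1414 RPM (median 1116) at W10 and 13.4 to 124 RPM (median 28.9) at Lac7. No mouse overlapped, the highest Lac7 values were again those of mice 4 and 5, and the 21.1-fold fall had the most negative log2 fold change of all 523 (log2 fold change -4.75, SE 0.39, limma adjusted p = 3.6e-11). miR-342-3p had 2385 to 3652 RPM (median 2831) at W10 and 387 to 637 RPM (median 460.5) at Lac7 (log2 fold change -2.60, SE 0.18, limma adjusted p = 1.4e-12). miR-155-5p, of activated lymphocytes and macrophages, had a log2 fold change of -2.52.

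Skeletal muscle miRNAs varied widely between mice. The list summed to 0.425 to 4.36% (median 2.16%) of the reads at W10 and 0.0263 to 1.76% (median 0.718%) at Lac7, with overlap. Of its 8 tested members 5 were called lower (3 on size factors), against 41.3% of all tested, and none of the 8 was without overlap, against 43.4% of all tested. miR-133a-3p had 2066 to 20489 RPM (median 9527) at W10 and 87.8 to 3417 RPM (median 1659) at Lac7 (log2 fold change -3.37, SE 0.81, limma adjusted p = 0.00066), and at Lac7 mice 4 and 5 were at 87.8 and 87.8 RPM while the lowest of the other 4 had 1655 RPM. miR-1a-3p and miR-1b-5p were not called (log2 fold changes -2.0 and -1.84), but miR-1a-3p was called when W10 mouse 3 or 7, or Lac7 mouse 1, 2, 3 or 6, was left out (log2 fold change -2.52 to -2.24), and miR-1b-5p without W10 mouse 3 or Lac7 mouse 1 (-2.24 and -2.38). Without Lac7 mice 4 and 5 the log2 fold change was -0.28 for miR-1a-3p, -0.14 for miR-1b-5p and -1.86 for miR-133a-3p (limma adjusted p = 0.74, 0.87 and 0.014). The W10 mice 1, 2, 4 and 5 each had over 10000 RPM on this list, and without them 239 miRNAs were called, 51 higher and 188 lower, and miR-133a-3p was not among them (log2 fold change -1.84). With the reads of the list removed from every library, 271 were called. miR-1a-3p had no listed sequence, so it was not searched for an antisense partner among the other miRNAs, miR-1b-5p included.

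Red blood cell miRNAs did not move as a group. The list summed to 0.0735 to 0.208% (median 0.127%) of the reads at W10 and 0.0942 to 0.109% (median 0.10%) at Lac7, with overlap. miR-144-3p rose, with means of 87.8 ± 32.7 RPM at W10 and 323 ± 41.2 RPM at Lac7 (SD, n = 6; log2 fold change 1.95), the arms of miR-486a fell (log2 fold changes -1.83 and -2.44), and miR-451a, the most abundant, had 539.9 to 1761 RPM (median 1001) at W10 and 543 to 659 RPM (median 641) at Lac7 with overlap (log2 fold change -0.58, SE 0.26, limma adjusted p = 0.053). Endothelial miR-126a-3p had 15105 to 16425 RPM (median 15322) at W10 and 16938 to 19312 RPM (median 18213) at Lac7 (log2 fold change 0.23, SE 0.09, limma adjusted p = 0.027). None of the 4 tested members of its list was called on RPM, against 52.2% of all tested. None was called on size factors either, against 18.2% of all tested called higher and 30.2% called lower. The list summed to 1.73 to 1.97% (median 1.81%) of the reads at W10 and 1.88 to 2.13% (median 2.05%) at Lac7.

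Of the miRNAs tied to proliferation, the miR-17-92 cluster and its paralogs had 10 of 21 tested members called lower and none higher, beside 41.3% of all miRNAs tested (7 lower and 1 higher on size factors), with a median log2 fold change of -0.94. Summed, they held 1.27 to 1.49% (median 1.46%) of the reads at W10 and 0.837 to 0.979% (median 0.899%) at Lac7, without overlap. The main arms of most members were not called: miR-25-3p, miR-93-5p and miR-19b-3p had log2 fold changes of -0.45, -0.60 and -0.84. Larger falls were those of the X-linked paralogs miR-20b-5p (-4.03), miR-363-3p (-3.96) and miR-106a-5p (-3.16), and of miR-92a-3p (-2.90).

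The list of miR-15, miR-16, miR-195 and miR-497, repressors of cell cycle genes, had 5 of 13 tested members called lower (3 on size factors), against 41.3% of all tested, with a summed share of 11.5 to 13.6% (median 13.1%) of the reads at W10 and 6.48 to 7.53% (median 7.01%) at Lac7, without overlap. miR-195a-5p fell with a log2 fold change of -1.04, and was not called on size factors (-0.48), without W10 mouse 3 (-0.98) or without Lac7 mouse 6 (-0.997). miR-322-5p, the mouse counterpart of human miR-424, had 1796 to 3377 RPM (median 2604) at W10 and 743 to 1031 RPM (median 792) at Lac7 and fell (log2 fold change -1.63, SE 0.13, limma adjusted p = 2.3e-11), while miR-542-3p of the same X-linked cluster had a log2 fold change of 0.34 and was not called. The miR-322 and miR-503 list summed to 0.244 to 0.404% (median 0.326%) of the reads at W10 and 0.133 to 0.167% (median 0.135%) at Lac7, and 4 of its 12 tested members were called lower (3 on size factors), against 41.3% of all tested.

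The imprinted Dlk1-Dio3 cluster on chromosome 12, expressed from the maternal chromosome in mesenchymal and fetal tissue, was lower at Lac7 in most of its tested members. Of 52 tested members 45 were called lower and none higher, against 41.3% of all miRNAs called lower, with a median log2 fold change of -1.83 (-1.43 on size factors, where 39 were called lower). The 85 listed members summed to 0.196 to 0.284% (median 0.246%) of the reads at W10 and 0.0344 to 0.0782% (median 0.0438%) at Lac7, without overlap. miR-541-5p, its most abundant member, had 587 to 968 RPM (median 727) at W10 and 112 to 259.7 RPM (median 142) at Lac7 (log2 fold change -2.33, SE 0.21, limma adjusted p = 1.9e-10). miR-127-5p had 73.5 to 138 RPM (median 107) at W10 and 3.99 to 18.7 RPM (median 7.97) at Lac7 and fell 12-fold (log2 fold change -3.56, SE 0.30, limma adjusted p = 6.6e-11), and miR-300-3p had 70.8 to 159 RPM (median 117) at W10 and 8.43 to 16.7 RPM (median 10) at Lac7 (log2 fold change -3.23, SE 0.26, limma adjusted p = 2.3e-11). All W10 mice were above all Lac7 mice for these 3. Most members were low, and 23 of the 52 did not overlap between the stages, a share near the 43.4% of all tested.

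The rodent-specific cluster in an intron of Sfmbt2 had 19 of 31 tested members called lower and 2 higher (15 and 2 on size factors), against 41.3% and 10.9% of all tested (median log2 fold change -1.18). Its sum was 0.0576 to 0.0986% (median 0.0912%) of the reads at W10 and 0.0185 to 0.0319% (median 0.0227%) at Lac7. Many of its members are nearly identical in sequence, so their single values are uncertain. miR-669o-3p, the most abundant, had 193 to 384 RPM (median 340.4) at W10 and 69.1 to 165 RPM (median 91) at Lac7 (log2 fold change -1.56, SE 0.28, limma adjusted p = 2.2e-05), without overlap.

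The plot of members by list shows these differences side by side: the miR-200 family and the miR-183 cluster lie to the right, the stromal miR-199 list, both leukocyte lists and the imprinted cluster to the left, and let-7 and miR-126 near 0.

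**Figure D3:**
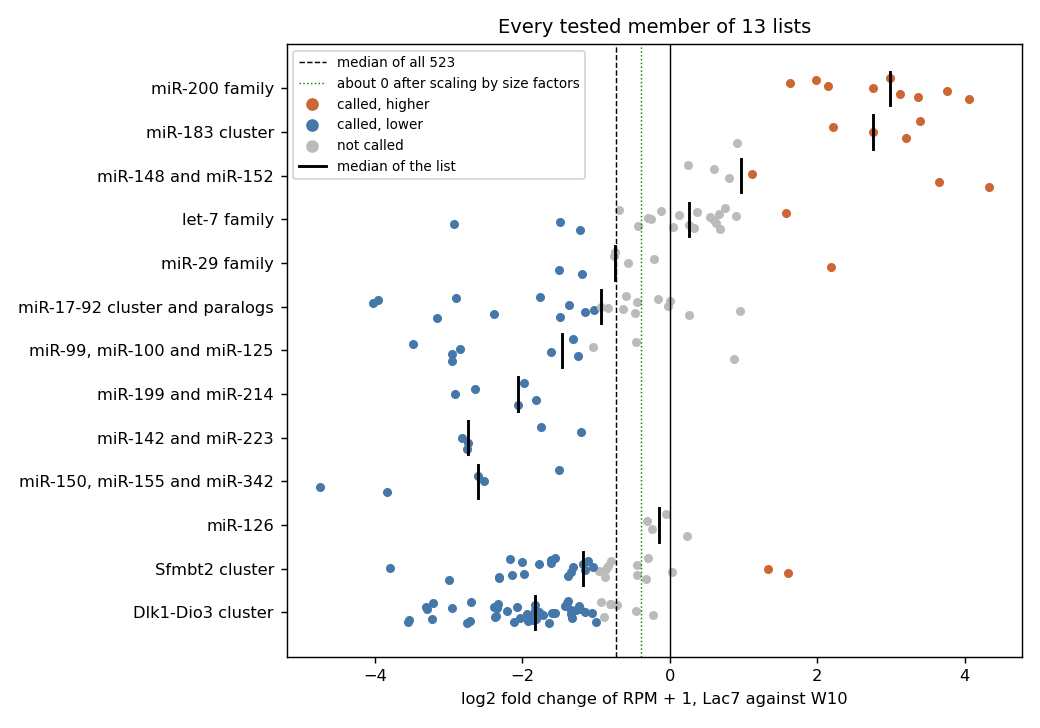
Log2 fold change of RPM + 1, Lac7 against W10, of each tested member of 13 lists, with called members in orange (higher) or blue (lower), the rest in grey and the list median as a bar. The dashed line marks the median of all 523 miRNAs (-0.73). The dotted line lies 0.39 below 0, the shift of that median on size factors, and marks 0 on that scale only roughly. List medians shifted by unlike amounts, such as 2.98 to 3.54 for the miR-200 family and -1.18 to -0.97 for the Sfmbt2 cluster. On RPM the medians run from -2.74 for miR-142 and miR-223 to 2.98 for the miR-200 family.

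The remaining lists showed smaller or mixed differences. None of the members of miR-26 (5 tested), of miR-221 and miR-222 (4) and of miR-101 (4) was called on RPM, against 52.2% of all tested. On size factors 1 of the miR-101 list was called higher, against 18.2% of all tested. miR-26b-5p, at 2488 to 2797 RPM (median 2719) at W10 and 2459.7 to 2943 RPM (median 2706) at Lac7, had a log2 fold change of -0.01. In the miR-378 family, known from mitochondrial metabolism, 1 of 5 was called higher, on RPM and on size factors, against 10.9% and 18.2% of all tested. The family did not rise as a whole. Its median log2 fold change was -0.43 (0.12 on size factors), miR-378a-3p had -0.60, and its mean summed share was 0.149% at W10 and 0.102% at Lac7, with overlap. In the miR-34 family, targets of p53, 1 of 7 was called lower on RPM, against 41.3% of all tested. On size factors 1 was called higher and none lower, against 18.2% and 30.2% of all tested. In the miR-132 and miR-212 list 1 of 3 was called lower on RPM and none on size factors, against 41.3% and 30.2% of all tested. Of miR-130 and miR-301, 3 of 5 were called lower, against 41.3% of all tested, and none on size factors. Among them was miR-301b-3p, whose call was lost without W10 mouse 2 or 7 or Lac7 mouse 2 (log2 fold change -0.78 to -0.96). Of miR-192, miR-194, miR-215 and miR-122, 1 of 4 was called lower, against 41.3% of all tested. On size factors 1 was called lower and 1 higher, against 30.2% and 18.2% of all tested. The liver miRNA miR-122-5p had at most 1.99 RPM at W10 and a median of 1.5 RPM at Lac7, with 1 mouse at 54.8 RPM.

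Members of 3 small lists fell by larger factors. miR-365-3p, active in brown fat, fell 6.6-fold (log2 fold change -2.69). It was the only call on RPM among 5 tested members of the miR-193 and miR-365 list, against 41.3% of all tested called lower. On size factors miR-193b-5p was called higher as well (1.19), against 18.2% and 30.2% of all tested called higher and lower. miR-204-5p and miR-211-5p, which share a seed, both fell (log2 fold changes -2.13 and -3.97), the latter to at most 2 reads in any Lac7 library, so its mean at W10 was at least 5.86-fold higher than the mean of the 3-read limits at Lac7. miR-184-3p, known from surface epithelia, had 263 to 715 RPM (median 554) at W10 and 12 to 26.7 RPM (median 18.2) at Lac7 and fell 28.9-fold (log2 fold change -4.73, SE 0.27, limma adjusted p = 1.7e-13). miR-338-3p had 443 to 689 RPM (median 569) at W10 and 41.2 to 109.7 RPM (median 68.7) at Lac7 (log2 fold change -3.02, SE 0.26, limma adjusted p = 6.5e-11). For miR-184-3p and miR-338-3p the stages did not overlap; the reads of miR-338-3p cannot be told apart with certainty from those of its antisense partner miR-3065-5p.

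Among the largest changes that belong to no list, miR-3105-5p had at most 4 reads in any W10 library and 60.6 to 93.7 RPM (median 79.2) at Lac7 (log2 fold change 5.37). miR-3964 had 219 to 504 RPM (median 439) at W10 and 11.2 to 40.9 RPM (median 21.2) at Lac7 and fell (log2 fold change -4.06, SE 0.33, limma adjusted p = 2.3e-11), with a sequence that shares a run of 13 bases with the far more abundant miR-142a-5p. miR-350-3p, in an intron of Cep170, had 142 to 456 RPM (median 214) at W10 and 19.7 to 33.5 RPM (median 24.5) at Lac7 (log2 fold change -3.15, SE 0.25, limma adjusted p = 2.2e-11). The stages did not overlap for any of the 3.

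**Figure D4:**
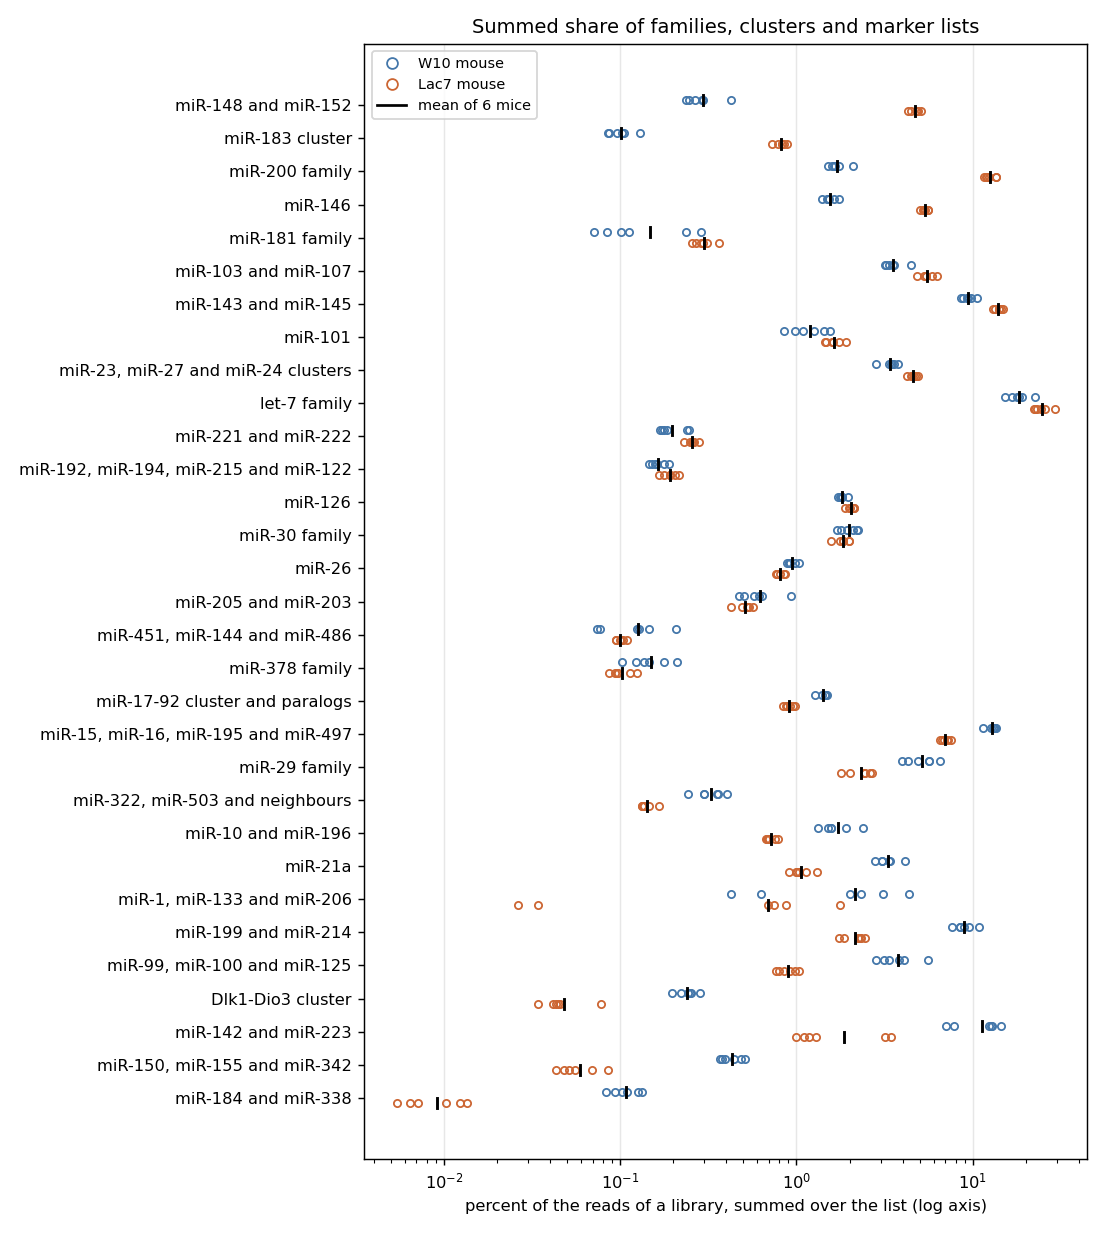
Share of the reads of each library, in percent on a log axis, summed over each list that reaches a mean of 0.1% at either stage, with W10 mice in blue, Lac7 mice in orange and the mean of 6 mice as a bar. From top to bottom the ratio of Lac7 to W10 falls, from the miR-148 and miR-152 list (0.294 to 4.72%) to the miR-184 and miR-338 list (0.108 to 0.00921%).

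With RPM summed over miRNAs of the same seed, 233 of 429 seed groups (54.3%) were called, 50 higher and 183 lower. The largest gains were those of miR-200a-3p and miR-141-3p (0.894 ± 0.169% of the reads at W10 and 8.04 ± 0.766% at Lac7), of the let-7 seed (18.3 ± 2.47% of the reads at W10 and 24.6 ± 2.59% at Lac7), of miR-143-3p (9.23 ± 0.687% of the reads at W10 and 13.9 ± 0.723% at Lac7), of the miR-148 seed (0.293 ± 0.0679% of the reads at W10 and 4.71 ± 0.299% at Lac7) and of the miR-146 seed (1.55 ± 0.125% of the reads at W10 and 5.35 ± 0.215% at Lac7), all as mean ± SD of 6 mice. The let-7 seed and miR-143-3p were not called, with log2 fold changes of 0.43 and 0.59. The largest losses were those of miR-199a-3p (8.23 ± 1.15% of the reads at W10 and 1.98 ± 0.269% at Lac7), miR-142b (7.36 ± 2.06% of the reads at W10 and 1.17 ± 0.744% at Lac7), the miR-16 seed (13.1 ± 0.739% of the reads at W10 and 7.06 ± 0.387% at Lac7), the miR-29 seed (5.14 ± 0.95% of the reads at W10 and 2.32 ± 0.353% at Lac7) and the miR-125 seed (3.59 ± 0.976% of the reads at W10 and 0.858 ± 0.104% at Lac7). The miR-16 seed was not called (log2 fold change -0.90). Of the 55 seed groups with at least 2 tested members, 2 held members called in opposite directions, those of miR-146 and miR-181.

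Hairpins within 10000 bases of each other on the same strand formed 40 clusters with tested miRNAs from 2 hairpins or more. In 30 of them the calls went in 1 direction, in 9 no member was called, and in 1, miR-29a with miR-29b-1, there were calls in both directions. A single member was called in 10 of the 30, which leaves 21 clusters with 2 or more called members, and most calls over all miRNAs were lower. Within a cluster the log2 fold changes of the tested members spanned 1.62 at the median and up to 3.85. The cluster of miR-200a, miR-200b and miR-429 had all 5 tested members called higher, against 10.9% of all tested, with log2 fold changes of 2.15 to 3.77. In the cluster of miR-199a-2 and miR-214, inside Dnm3os, all 4 were called lower, from -2.65 to -1.82, against 41.3% of all tested. In 2 neighbouring clusters of the Dlk1-Dio3 locus on the plus strand, 27 of 31 and 10 of 12 tested members were called lower, against the same 41.3%. miRNAs with several loci, such as let-7c-5p or miR-19b-3p, count in each of their clusters, and hairpins with no RefSeq entry are not included.

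In the 5p to 3p ratio of a hairpin the total of the library cancels, since both arms are divided by it. Of 70 hairpins with both arms at a mean of 10 RPM or more, 23 (32.9%) were called by the same rule, with limma on log2((5p + 1)/(3p + 1)), 16 toward the 5p arm and 7 toward the 3p arm. For let-7d this log2 ratio was 3.58 to 4.24 at W10 and 6.77 to 8.04 at Lac7 (difference 3.57, SE 0.29, limma adjusted p = 2.2e-10). Its mean levels went from 1813 to 2779 RPM for the 5p arm and 122 to 15.2 RPM for the 3p arm, and no mouse overlapped in the ratio. The 3p arm was called lower, while the 5p arm was called higher on size factors only. For miR-144 the log2 ratio was -1.23 to 0.85 at W10 and -3.37 to -2.39 at Lac7 (difference -2.42, SE 0.26, limma adjusted p = 2.7e-08), with means that went from 58.3 to 41.2 RPM for the 5p arm and 87.8 to 323 RPM for the 3p arm. The ratio of miR-423 was -1.30 to -0.15 at W10 and 0.72 to 2.40 at Lac7 (difference 2.57, SE 0.32, limma adjusted p = 3.7e-07), with 24.7 and 28 RPM on its 5p arm. The next were miR-664 and miR-574, with differences of 2.48 and 2.04, also between arms of low level. miR-203 (-2.02) turned further toward its main 3p arm. With both arms at 100 RPM or more, 17 hairpins were left, and 2 of them were called.

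**Figure D5:**
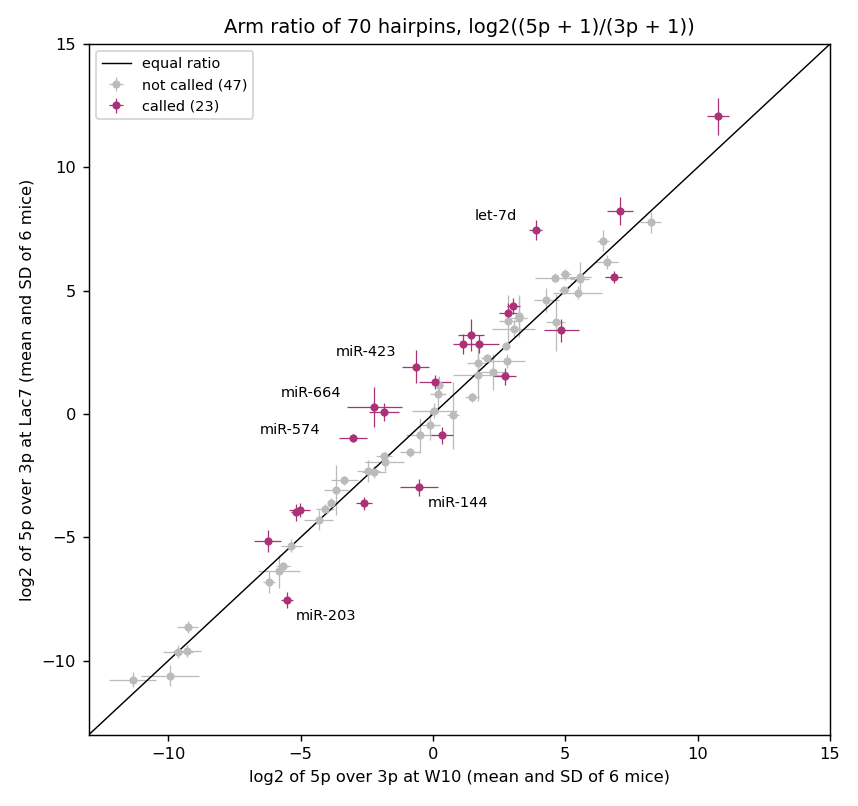
Log2 ratio of the 5p to the 3p arm, log2((5p + 1)/(3p + 1)) of RPM, for 70 hairpins at W10 (horizontal) and at Lac7 (vertical), as mean and SD of 6 mice, with the 23 called hairpins in purple and a line of equal ratio. let-7d stands farthest above the line (3.57) and miR-144 farthest below it (-2.42).

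Against the other pairs of stages, fitted the same way, Lac7 and W10 differed in the most miRNAs. The share called was 52.2% here, 28.2% for P18 against W10, 26.2% for Inv3 against W10, 33.5% for Lac7 against P18, 30.4% for Inv3 against Lac7 and 15.8% for Inv3 against P18. These comparisons share mice, so they are not independent of each other. Of the 57 miRNAs called higher at Lac7, 45 had a P18 mean between those of W10 and Lac7, and 45 an Inv3 mean between them. Of the 216 called lower, the numbers were 170 and 189. These miRNAs were picked for a wide gap between W10 and Lac7, which by itself favours a mean in between. No such count was made for the miRNAs not called, so these numbers are not read as a graded course.

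The miRNAs differed in where pregnancy placed them. At P18 miR-146b-5p already had 31080.4 RPM and miR-148a-3p 21329 RPM, as means of 6 mice, against 50208 and 46228 RPM at Lac7. miR-375-3p had 32.1 RPM at P18, beside 26.1 RPM at W10, 964 RPM at Lac7 and 169.9 RPM at Inv3. miR-184-3p was at 47.7 RPM at P18 and 64 RPM at Inv3, between its 17.6 RPM at Lac7 and its 509 RPM at W10. miR-21a-5p, at 13197 RPM at P18, had 31169 RPM at Inv3, beside 32862 RPM at W10. The Dlk1-Dio3 list held 0.222% of the reads at P18, beside 0.241% at W10, 0.048% at Lac7 and 0.11% at Inv3.

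Base composition differed little between the called groups. Median GC content was 44.5% for the 52 higher miRNAs with a sequence, 47.6% for the 181 lower ones and 45.8% for all 441, and across these 441 miRNAs, which share the same 12 libraries, Spearman's rho between GC content and log2 fold change was -0.08.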

How the data were processed

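Libraries of small RNA were made with the QIAseq miRNA kit from homogenized mammary glands of 24 mice, 6 for each stage. The authors counted reads with QuickMIRSeq against miRBase and deposited RPM, reads per 1e6 miRNA reads, for 1009 miRNAs in 24 libraries. The submitters' processing notes name Trimmomatic 0.36, cutadapt, FastQC, MultiQC and the build GRCm38. Whether molecular identifiers were used and the strand setting of the counting are not given in the sources used here. The study's own test, DESeq2, needs counts and served here as an alternative.

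RPM were compared as log2(RPM + 1) with limma 3.58.1 (R 4.3.3), with a mean-dependent prior, over all 24 libraries for the spread, after a filter of 1 RPM at W10 or Lac7. Two-sided p-values were adjusted by the Benjamini-Hochberg method over all 523 miRNAs, and a call needs an adjusted p below 0.05 together with a change of 2-fold or more (1 on the log2 scale). The SE is that of limma. Seed groups and arm ratios were fitted in the same way. Single values per library were compared by an exact permutation test. Whole reads were recovered from the steps of RPM (100% of values within 0.0051 RPM) for the size factors, thinning, edgeR 4.0.16 and DESeq2 1.42.0. Nothing says that the mice of a stage were independent beyond their numbers, and p-values measure the spread between them. The fit was tested on simulated data.

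The members and lists were chosen with earlier results of these data known. miRNAs were named as the 10 most abundant of each stage, the 8 largest non-overlapping increases and decreases over 100 RPM and the 3 largest at any level, up to 3 most abundant members of each list, the 5 hairpins with the largest arm change and the 5 seed groups with the largest gains and losses. The other let-7, miR-181, miR-17-92 and antisense members, miR-148a-5p, miR-223-3p, miR-27a-3p, miR-29b-1-5p, miR-30b-3p and miR-429-3p were added after their values were seen. Gene overlaps are from GENCODE on GRCm38.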

Additional observations from a re-analysis of the deposited data

Results flagged for a closer look

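Among the values per mouse of the named miRNAs, lists and single measures, 13 of 148 groups of 6 held a mouse whose distance from its nearest neighbour exceeded Dixon's 95% limit, as a part of the range of the group. Chance gives about 1 in 20, and the cause was not tested. W10 mouse 1 was the highest of its stage for miR-148a-3p (3632 RPM, others 1809 to 2339), for the miR-148 and miR-152 list (0.424% of the reads, others 0.237 to 0.297%), for miR-375-3p (76.6 RPM, others 8.95 to 28.0, with a list share of 0.00766%) and for the miR-205 and miR-203 list (0.932%, others 0.472 to 0.637%). W10 mouse 3 was the highest for miR-103-3p (43129 RPM, others 30107 to 34278) and for the miR-103 and miR-107 list (4.47%, others 3.16 to 3.58%). W10 mouse 4 was the highest for miR-200a-3p (11694 RPM, others 7072 to 8508) and for miR-3105-5p (4.30 RPM, others at most 1.10). Except for the miR-205 and miR-203 list, every Lac7 mouse was outside the W10 range for these values. The effective number of miRNAs reached 36.9 in 1 W10 mouse, with the others at 32.3 to 33.6.

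At Lac7, mouse 2 was the highest for miR-127-5p (18.7 RPM, others 3.99 to 8.90), mouse 5 for the miR-322 and miR-503 list (0.167%, others 0.133 to 0.145%) and mouse 1 for the Dlk1-Dio3 list (0.0782%, others 0.0344 to 0.0459%). All 3 values remain below the W10 range.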

How the results depend on the processing

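The counts of calls depend mainly on low miRNAs and on the scaling. With a pseudocount of 10 RPM, 152 miRNAs were called, 114 of them lower, and 128 seed groups. With a filter of 100 RPM there were 98 calls, 27 higher and 71 lower, with 80 seed groups and 2 hairpins, since fewer were tested. Higher calls numbered 95 on size factors, 87 on TMM factors, 86 by edgeR and 95 by DESeq2 on the recovered reads, and DESeq2 called 133 lower. Leaving out 1 mouse at a time gave 271 to 280 calls, 55 to 62 higher and 214 to 222 lower, 20 to 25 hairpins and 232 to 239 seed groups. The difference between the stages was then 2.06 to 2.55 points for the share of the most abundant miRNA and 2.45 to 3.33 points for that of the first 10. It was -4.58 to -3.66 for the effective number and -77.2 to -55.8 for the number detected. No named miRNA changed direction while called. Mice of the same number were not more alike across W10 and Lac7 than other mice. Over 183 miRNAs the 5 same-numbered pairs had a mean correlation of deviations of -0.229 (-0.528 to 0.217), and the 31 other pairs one of 0.044. With 5 pairs this cannot settle whether the numbers mark a pairing. A fit with the replicate number as a block called 276 miRNAs. The alternatives that leave out Lac7 mice 4 and 5, the W10 mice high in muscle miRNAs or the muscle list, or that join only matched sequences into seed groups, were chosen after seeing the data. Depth limits the low miRNAs, since 3 reads are up to 4.54 RPM at Lac7.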
